A study of Mus musculus with 9 samples.

Results

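The miR-148 and miR-152 family is made of 3 miRNA hairpins, mir-148a, mir-148b and mir-152, and every entry of these hairpins was taken by name from a table of miRNAs in extracellular vesicles (EVs) of mouse bronchoalveolar lavage fluid (BALF), the fluid washed from the airways. The table held 18 family entries of 1308 in all, of which 7 were of mir-148a, 5 of mir-148b and 6 of mir-152. 5 of them were mature miRNAs and 13 were isomiRs, forms of a miRNA whose 5′ end is shifted against the mature one. A mature miR-152-5p was not among the entries, and the 5p arm of mir-152 was seen only as an isomiR.

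Small RNA was sequenced from 9 pools of BALF EVs of female C57BL/6J mice, aged 8 to 10 weeks, that had inhaled filtered air (FA), 1 ppm ozone (O3) or 2 ppm O3 for 3 h and were lavaged the next day. No mouse carried a transgene or other engineered allele in the labels, and each exposure had 3 pools. FA pools were made from 4 mice and O3 pools from 3 mice, so that pool size and exposure to O3 cannot be told apart. Values are RPMMM, reads of an entry scaled to a total of 1000000 reads mapped to miRNAs, and the number of reads behind them was estimated from the smallest step between low values. Estimated depth was 535534 to 773268 miRNA reads in FA, 555107 to 860958 after 1 ppm O3 and 281539 to 300916 after 2 ppm O3. The lowest value above 0 in a pool lay at about 10 reads, which is 11.8 to 18.9 RPMMM in FA and 1 ppm O3 pools but 34.3 to 37.3 RPMMM in 2 ppm O3 pools.

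A mature miRNA guides a silencing complex to messenger RNAs, chiefly through its seed, bases 2 to 8 from the 5′ end, so that miRNAs with the same seed are expected to share many targets. The miR-148 and miR-152 family is known for repressing Dnmt1, the enzyme that copies DNA methylation at replication. It is also known for restraining dendritic cell activation and, for miR-148a, for roles in B lineage cells and in lipid metabolism of the liver. In each hairpin the 3p arm is the usual guide strand and the 5p arm its partner, which is mostly discarded.

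The mature 3p sequences, from RefSeq for GRCm38.p6, show what the 3 main entries share and where they part, with the seed in capitals.
miR-148a-3p: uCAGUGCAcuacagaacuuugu
miR-148b-3p: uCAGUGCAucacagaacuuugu
miR-152-3p: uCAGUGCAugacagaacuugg
All 3 carry the seed CAGUGCA, and they were the only 3 of 1738 mature miRNAs in the RefSeq table that did. Counted from the 5′ end, miR-148b-3p differs from miR-148a-3p by C9U and U10C, 2 neighbouring bases just behind the seed. miR-152-3p differs from miR-148a-3p by C9U, U10G and U20G, and is 1 base shorter. The pairs were 85.7% to 90.9% identical. A full-length read tells them apart by these bases, but 47 of the 62 family values above 0 lay within 0.1 read of a whole number of reads and the rest on fractions of a read.

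The 5p partners are shown because they differ more along their length, with bases 2 to 8 again in capitals, and because the data hold so little of them. In bases 2 to 8, miR-148a-5p and miR-148b-5p are the same and miR-152-5p differs.
miR-148a-5p: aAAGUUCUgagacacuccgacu
miR-148b-5p: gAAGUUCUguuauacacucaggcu
miR-152-5p: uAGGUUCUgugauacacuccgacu
For each hairpin, the 3p isomiR with the highest mean level begins 1 base downstream of the mature start. These forms are shown because that single step changes the seed.
miR-148a-3p_+_1: cAGUGCACuacagaacuuugu
miR-148b-3p_+_1: cAGUGCAUcacagaacuuugu
miR-152-3p_+_1: cAGUGCAUgacagaacuugg
These 3 lines keep the mature 3′ end, since the table names only the 5′ shift. No mature miRNA in the RefSeq table carried the shifted seed of miR-148a-3p (0 of 1738) or the one that miR-148b-3p and miR-152-3p have in common after the shift (0 of 1738).

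In mm9, the build the submitters name, the hairpins lie on 3 chromosomes. Mir148a is at chr6:51219811-51219909 on the minus strand, between genes, with the nearest protein-coding gene, Gm9953, 13622 bases away. Mir148b is at chr15:103115556-103115652 (plus strand) and falls in an intron of Copz1. Mir152 is at chr11:96711707-96711779 (plus strand) and falls in an intron of Copz2. Copz1 and Copz2 encode paralogous zeta subunits of the COPI coat of Golgi vesicles. In all 3 places the mm9 sequence was the same as the RefSeq hairpin.

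miR-148a-3p was the most abundant member in every pool. It stood at 1446, 1615 and 1838 RPMMM in the FA pools, at 1721, 1455 and 1735 RPMMM after 1 ppm O3 and at 1218, 1206 and 1275 RPMMM after 2 ppm O3. The 3 pools of 2 ppm O3 were all below every other pool, and the FA and 1 ppm O3 pools overlapped. Means were 1633 ± 197 (SD, n = 3 pools), 1637 ± 158 and 1233 ± 37.0 RPMMM. The 2 ppm O3 pools rested on 349 to 366.5 estimated reads, and the 95% Wilson interval of the lowest of them, 1086 to 1339 RPMMM, covers counting error only.

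miR-152-3p came next in every pool. Its levels were 628.8, 600.05 and 666.62 RPMMM in FA, 668.94, 829.03 and 656.24 RPMMM after 1 ppm O3 and 654.67, 637.48 and 665.63 RPMMM after 2 ppm O3. Apart from one high 1 ppm O3 pool, all pools lay between 600.05 and 668.94 RPMMM, and the 3 exposures overlapped.

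miR-148b-3p was the lowest of the 3 and the most scattered. It had 371.45, 215.97 and 201.2 RPMMM in FA, 362.76, 235.09 and 410.01 RPMMM after 1 ppm O3 and 276.65, 247.04 and 288.59 RPMMM after 2 ppm O3. The 2 ppm O3 pools fell within the range of the FA pools, and they rested on only 71.5 to 83.2 estimated reads each. The order miR-148a-3p, miR-152-3p, miR-148b-3p held in all 9 pools, and the ranges of the 3 members over all pools did not overlap, with 1 read standing for 1 miRNA whatever its length. By mean level in FA they took places 79, 128 and 213 of the 1308 entries.

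**Figure D1:**
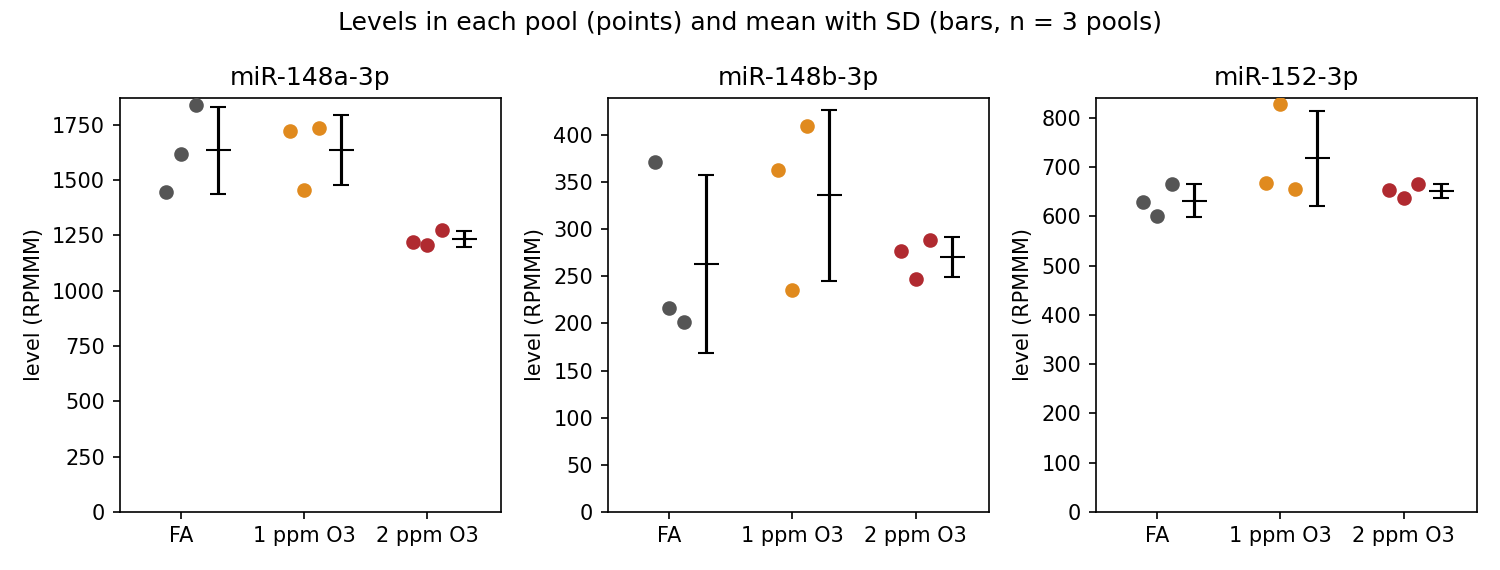
Level of each mature 3p member (RPMMM, vertical axis from 0) in the 9 pools by exposure, with points for pools and the mean and SD of 3 pools beside them. Under the deposited scaling the miR-148a-3p points of 2 ppm O3, at 1206 to 1275 RPMMM, lie below all others, while the miR-152-3p and miR-148b-3p points overlap between exposures.

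Differences in level between exposures were tested with limma on log2(RPMMM + 1) for the 461 entries whose mean over all pools exceeded 50 RPMMM. The 3 mature 3p entries were among them and the other 15 family entries were not. An entry was called at an adjusted p below 0.05 together with a fold change of at least 2. After 1 ppm O3, 0 of the 3 members were called against FA, beside 13.2% of all entries tested, and 0 of 3 had an unadjusted p below 0.05, beside 27.3%. The log2 fold changes were 0.01 for miR-148a-3p (adjusted p = 0.995 from limma), 0.37 ± 0.322 (SE) for miR-148b-3p (adjusted p = 0.584 from limma) and 0.18 ± 0.159 for miR-152-3p (adjusted p = 0.593 from limma). The 95% intervals of the fold change were 0.812 to 1.24, 0.782 to 2.14 and 0.882 to 1.45.

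After 2 ppm O3, 0 of the 3 members were called against FA, beside 43.6% of all entries tested. miR-148a-3p was 0.758-fold its level in FA, or -0.40 ± 0.136 (SE) in log2 (limma, adjusted p = 0.0325), which passed the threshold on p but not that on size. With the threshold on p alone, 1 of 3 members passed, beside 53.4% of all entries, and 1 of 3 had an unadjusted p below 0.05, beside 59.9%. This p did not hold throughout, as it lay between 0.0232 and 0.117 when each pool was left out in turn. It was above 0.05 without FA replicate 2, without FA replicate 3, without the 2 ppm O3 replicate 1 and without the 2 ppm O3 replicate 2. The FA and 2 ppm O3 pools of miR-148a-3p did not overlap, beside 48.2% of entries that were lower without overlap.

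miR-148b-3p (log2 fold change 0.10, adjusted p = 0.811 from limma) and miR-152-3p (0.05, adjusted p = 0.811 from limma) were close to their FA levels after 2 ppm O3. Their 95% intervals ran from 0.647-fold to 1.77-fold and from 0.806-fold to 1.33-fold. Against 1 ppm O3, the 2 ppm O3 pools again gave 0 of 3 calls, beside 33.6% of all entries, and 1 of 3 with the threshold on p alone, beside 44.5%. miR-148a-3p differed by -0.40 in log2 (limma, adjusted p = 0.0388), with pools that did not overlap, beside 37.5% of entries lower without overlap. This p ran from 0.0224 to 0.112 with each pool left out, above 0.05 without FA replicate 2, 1 ppm O3 replicates 1 or 3, or 2 ppm O3 replicates 1 or 2. The values were -0.27 for miR-148b-3p (adjusted p = 0.491 from limma) and -0.13 for miR-152-3p (adjusted p = 0.510 from limma). The 3 comparisons share pools and are not independent of each other.

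**Figure D2:**
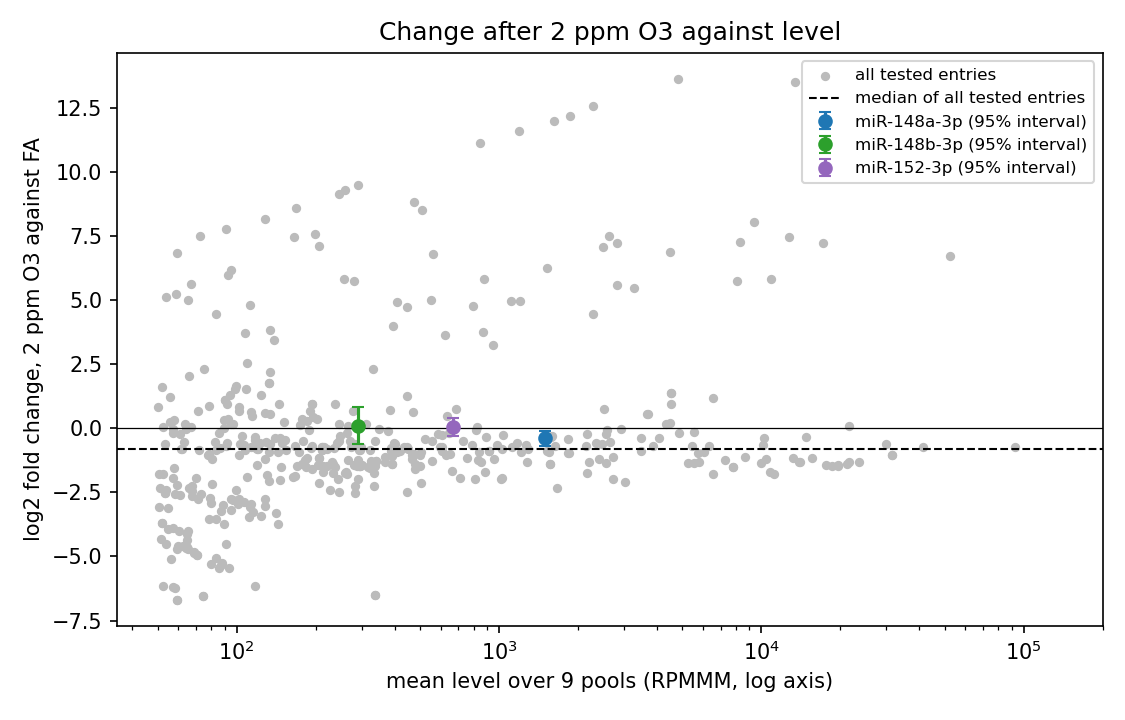
Log2 fold change of 2 ppm O3 against FA (vertical axis) and mean level over the 9 pools (RPMMM, horizontal log axis) of the 461 entries tested, with the 3 members in colour and their 95% intervals. Under the deposited scaling miR-148b-3p at 0.10 and miR-152-3p at 0.05 lie near 0 and miR-148a-3p at -0.40, all above the median of all entries (dashed) at -0.83.

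The levels as deposited changed little. All 3 had a log2 fold change between -0.5 and 0.5 after 2 ppm O3, as did 14.5% of the entries tested, and 72% of all entries had a value below 0. The coefficient of variation of miR-152-3p over the 9 pools was 9.67%, the lowest (rank 1) of the 461 entries, whose median was 50.6%. miR-148a-3p was at 15.9% (rank 7) and miR-148b-3p at 25.8% (rank 33). Across the 27 pairs of pools from different exposures, miR-148a-3p rose with the concentration in 5 (exact permutation test, two-sided, p = 0.0738), miR-148b-3p in 16 (p = 0.668 by the same exact test) and miR-152-3p in 15 (p = 0.831 by the same exact test). Of all entries, 28.4% fell and 14.8% rose with a p below 0.05 in this test.

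These near-constant levels depend on the total to which the pools were scaled. miR-2137, whose mean was 1978 RPMMM in FA and 126875 RPMMM after 2 ppm O3, and hairpins that the RefSeq gene table does not hold (unmatched hairpins) together held 0.627% of the total in FA, 8.08% after 1 ppm O3 and 45.2% after 2 ppm O3. All other entries share what is left of a fixed total. At 2 ppm O3 against FA the middle of the log2 fold changes over all entries was -0.83 as deposited and 0.05 with those entries left out of the total, and relative to this middle value the members stood at 0.43 (miR-148a-3p), 0.92 (miR-148b-3p) and 0.87 (miR-152-3p) as deposited.

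With the total taken without them, all 3 members were higher at 2 ppm O3 than in FA, with log2 fold changes of 0.46 (miR-148a-3p, adjusted p = 0.0198 from limma), 0.95 (miR-148b-3p, adjusted p = 0.0399 from limma) and 0.91 (miR-152-3p, adjusted p = 0.00217 from limma). Scaling by the median of ratios gave 0.30 (adjusted p = 0.108), 0.79 (adjusted p = 0.0758) and 0.74 (adjusted p = 0.00738) from limma. Leaving out miR-2137 alone gave -0.09, 0.40 and 0.36, and levels relative to miR-23a-3p, the reference of the study's RT-qPCR, gave -0.49 (adjusted p = 0.0183 from limma), 0.01 and -0.04. The paper picked miR-23a-3p because it varied little in the small RNA sequencing. Its own log2 fold change was 0.09 as deposited, so at 2 ppm O3 against FA this scaling stays close to the deposited one by construction. The direction for miR-148a-3p thus turned between scalings, and that for miR-152-3p turned with miR-23a-3p as the reference. A scaling moves all entries of a pool by the same factor, so the order of the 3 members and, nearly, their distance to the median of all entries (0.39 to 0.92) are fixed across the 5 scalings by construction. The coefficient of variation of miR-152-3p was 29.9% (rank 133 of 498) without miR-2137 and the unmatched hairpins and 24.9% (rank 91 of 458) with median-of-ratios scaling.

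**Figure D3:**
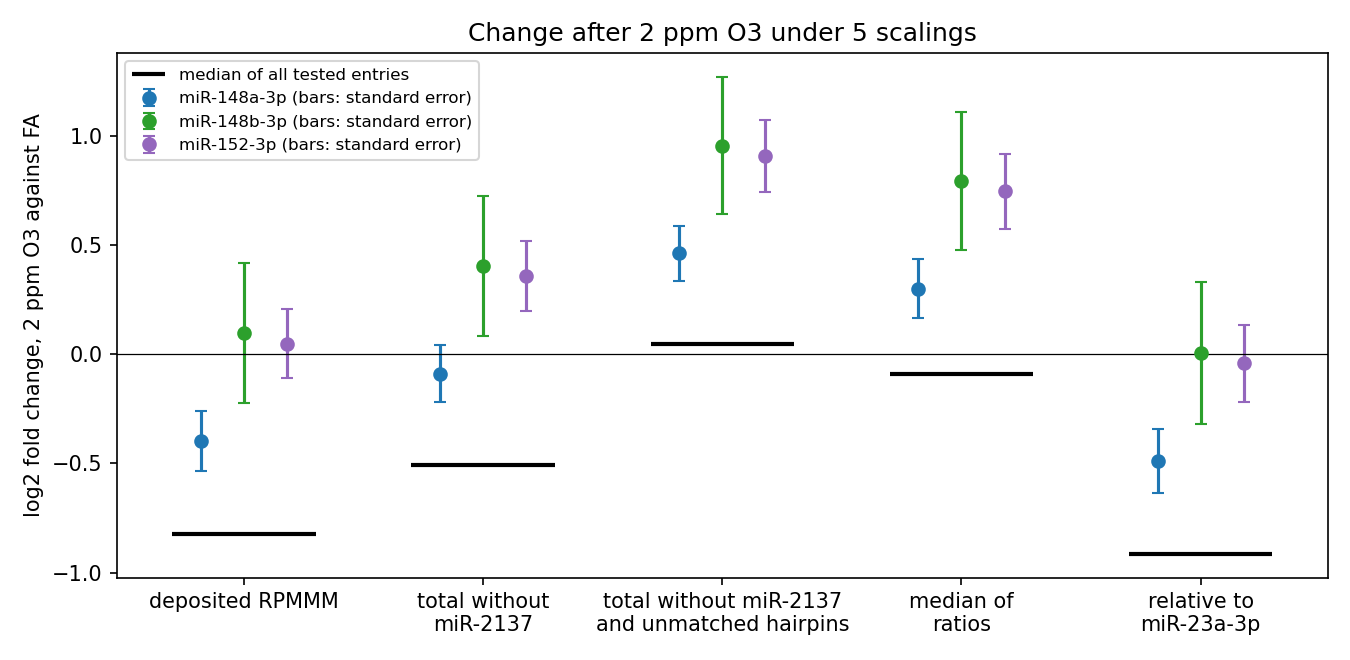
Log2 fold change of 2 ppm O3 against FA (vertical axis) for the 3 members, with standard errors from limma, and for the median of all entries tested (black lines), under 5 scalings of the pools (horizontal axis). miR-148a-3p runs from -0.49 to 0.46, miR-148b-3p from 0.01 to 0.95 and miR-152-3p from -0.04 to 0.91, and the black line lies below all 3 members each time.

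Ratios between members of the same pool do not depend on that total. The ratio of miR-148a-3p to miR-152-3p was 2.30, 2.69 and 2.76 in the FA pools, 2.57, 1.75 and 2.64 after 1 ppm O3 and 1.86, 1.89 and 1.91 after 2 ppm O3. The 2 ppm O3 pools were all below the FA pools, and the 1 ppm O3 pools spanned both. Means were 2.58 ± 0.247 (SD, n = 3 pools), 2.32 ± 0.493 and 1.89 ± 0.0277, and 2 ppm O3 against FA was 0.734-fold (p = 0.1 by a two-sided exact permutation test, which is its lower limit for 3 pools against 3, and 0.156 adjusted over the 14 quantities tested in this way).

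With the concentration, the ratio of miR-148a-3p to miR-152-3p rose in 5 of 27 pairs (exact permutation test, two-sided, p = 0.0738, adjusted p = 0.129). Without the 1 ppm O3 replicate 2, the pool with the highest miR-152-3p, it rose in 2 of 21 pairs (exact permutation test, two-sided, p = 0.0286, not adjusted), and over the 9 pools left out in turn this p ran from 0.0286 to 0.193. The ratio of miR-148a-3p to miR-148b-3p was 6.81 ± 2.66 in FA, 5.04 ± 1.01 after 1 ppm O3 and 4.55 ± 0.270 after 2 ppm O3, with a wide spread in FA (2 ppm O3 against FA, exact permutation test, two-sided, p = 0.4, adjusted p = 0.509). That of miR-148b-3p to miR-152-3p was 0.418 ± 0.153, 0.484 ± 0.178 and 0.415 ± 0.0240 in the same order, and its FA and 2 ppm O3 pools overlapped.

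**Figure D4:**
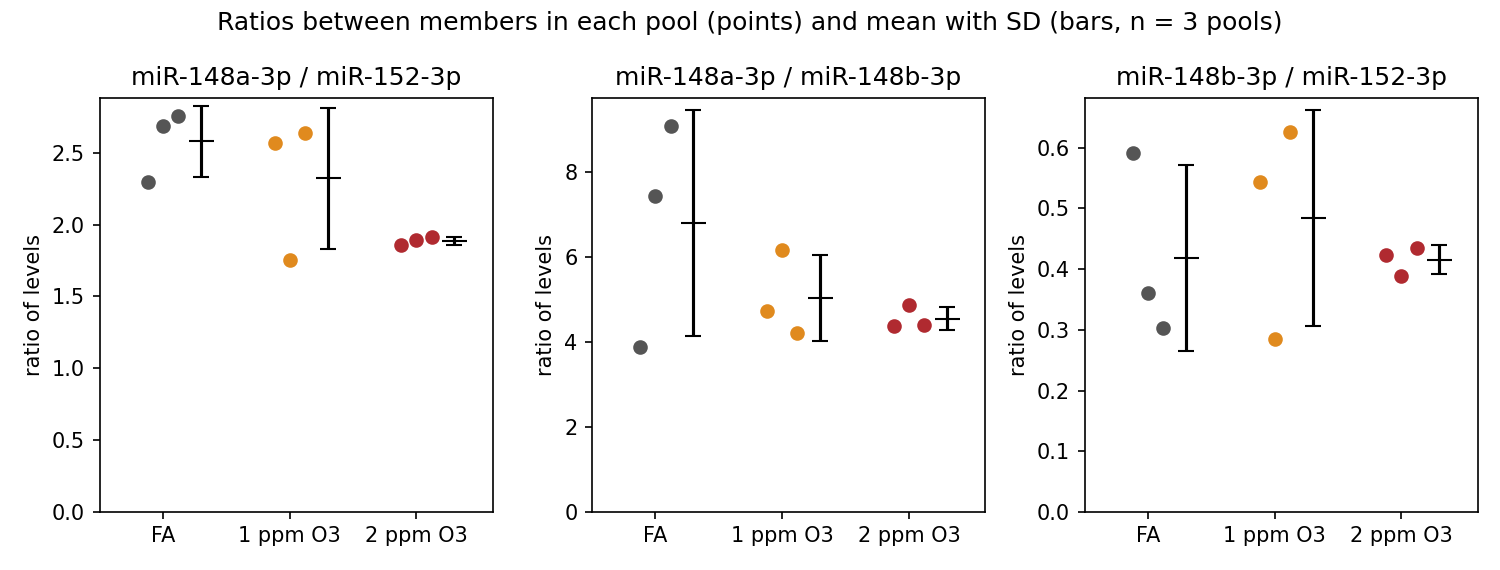
Ratio of levels between pairs of members (vertical axes from 0) in the 9 pools by exposure, with points for pools and the mean and SD of 3 pools beside them. The ratio of miR-148a-3p to miR-152-3p lies between 1.86 and 1.91 in the 2 ppm O3 pools and between 2.30 and 2.76 in the FA pools, while the other ratios overlap between FA and 2 ppm O3.

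Summed over all entries of a hairpin, mir-148a had 1713 ± 230 in FA, 1750 ± 195 with 1 ppm O3 and 1260 ± 13.5 RPMMM with 2 ppm O3 (mean ± SD of 3 pools). The sum for mir-152 was 679 ± 30.2, 766 ± 91.0 and 665 ± 26.9 RPMMM, and for mir-148b 282 ± 78.7, 412 ± 102 and 271 ± 21.4 RPMMM. At 2 ppm O3 against FA the exact permutation test, two-sided, gave p = 0.1 for mir-148a, 0.9 for mir-148b and 0.6 for mir-152. The whole family had 2674 ± 186, 2928 ± 202 and 2195 ± 52.0 RPMMM, of which mir-148a held 63.9%, 59.6% and 57.4%, and mir-152 25.4%, 26.4% and 30.3%.

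The isomiRs were scarce, and none had a mean above 50 RPMMM. The highest single value was 98.18 RPMMM, and 8 of the 13 isomiRs were above 0 in 1 pool only. miR-148a-3p_+_1, whose shifted sequence is printed above, was the most frequent, with 24.63, 36.21 and 84.03 RPMMM in FA, 98.18, 19.82 and 20.91 RPMMM after 1 ppm O3 and 34.89 RPMMM in the one 2 ppm O3 pool where it was above 0. Its level was thus uneven between pools of the same exposure.

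miR-148a-3p_+_2 was listed at 0 in all FA pools and was above 0 in 2 pools of 1 ppm O3, at 50.44 and 74.34 RPMMM, and in 1 pool of 2 ppm O3, at 44.92 RPMMM. miR-152-3p_+_1 was above 0 in 2 FA pools, at 42.95 and 49.14 RPMMM, and in all 1 ppm O3 pools, at 18.3, 19.82 and 46.46 RPMMM, and was listed at 0 in the 2 ppm O3 pools. miR-148b-3p_+_1 appeared in 2 pools of 1 ppm O3, at 23.3 and 66.65 RPMMM. The last value stands beside a mature level of 235.09 RPMMM in the same pool, the one with the lowest miR-148b-3p of its exposure.

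Shifted forms made up 4.37 ± 0.408% (SD, n = 3 pools) of the family's 3p reads in FA, 5.69 ± 0.891% after 1 ppm O3 and 1.77 ± 1.63% after 2 ppm O3 (2 ppm O3 against FA, exact permutation test, two-sided, p = 0.1). In the whole table the shifted share was between 6.82% and 7.25% in FA pools and between 30.6% and 34.3% after 2 ppm O3, but without miR-2137 and the unmatched hairpins it was between 6.55% and 6.85% in FA and between 6.82% and 7.56% after 2 ppm O3. The family's lower share at 2 ppm O3 stands beside the higher lowest value of these pools, 34.3 to 37.3 RPMMM, since 13 of the 22 values of 3p isomiRs in FA and 1 ppm O3 pools were under 34.3 RPMMM. The part of this minimum in the difference was not tested.

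The 5p arm was scarce, with values above 0 between 12.78 and 67.37 RPMMM. miR-148a-5p had 23.28 and 31.74 RPMMM in 2 FA pools and 43.26 and 19.75 RPMMM in 2 pools of 1 ppm O3. miR-148b-5p had 14.23 and 22.41 RPMMM in the same 2 FA pools and 46.59 and 67.37 RPMMM in the same 2 pools of 1 ppm O3. Of the 4 entries of the 5p arm, 10 values were above 0, 0 of them in the 2 ppm O3 pools, and 6 of the 10 were under 34.3 RPMMM. The 5p arm held 1.11 ± 0.983% of the family's reads in FA and 2.50 ± 2.22% after 1 ppm O3, and was listed at 0 after 2 ppm O3, where no value under 34.3 RPMMM is listed.

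The family was set beside 2 other families of widely expressed miRNAs, miR-26 and miR-103 and miR-107, in ratios that do not depend on the total. These ratios of single members were added after the values had been seen. miR-26a-5p fell from 37111 ± 1063 in FA to 17837 ± 921 RPMMM after 2 ppm O3 (SD, 3 pools each, log2 fold change -1.06, limma adjusted p = 3.33e-06), and miR-103-3p from 2245 ± 303 to 1139 ± 64.3 RPMMM (-0.97, adjusted p = 0.00056 from limma), both by the values of their first genomic copy. Both stayed below their FA level under the 5 scalings, by 0.20 to 1.15 and by 0.11 to 1.06 on the log2 scale, and for miR-103-3p the adjusted p was 0.171 with median-of-ratios scaling and 0.581 without miR-2137 and the unmatched hairpins (limma). miR-26b-5p fell likewise, by 1.15 on the log2 scale (adjusted p = 1.09e-05 from limma), whereas miR-107-3p, which is nearly identical to miR-103-3p and could share reads with it, was higher by 2.20 (adjusted p = 0.0322 from limma).

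Per copy of miR-26a-5p, each member was higher after 2 ppm O3 than in any FA pool. The ratio of miR-152-3p to miR-26a-5p was 0.0171 ± 0.00126 in FA, 0.0184 ± 0.00323 after 1 ppm O3 and 0.0367 ± 0.00112 after 2 ppm O3, which is 2.15-fold its FA value. For miR-148b-3p the change was 2.22-fold and for miR-148a-3p 1.58-fold (p = 0.1 for each of the 3 by the exact permutation test, its lower limit). Per copy of miR-103-3p, 2 ppm O3 against FA was 2.03-fold for miR-152-3p, 2.10-fold for miR-148b-3p and 1.49-fold for miR-148a-3p, again without overlap and with p = 0.1 by the same exact test. Both miR-26a-5p (-1.06) and miR-103-3p (-0.97) fell further than the median of all entries tested (-0.83), so a typical entry also rose against them. How many of all entries did so without overlap was not counted, so the lack of overlap cannot be read as particular to the family.

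With the concentration, the ratio of miR-148a-3p to miR-103-3p rose in 26 of 27 pairs (exact permutation test, two-sided, p = 0.00357, adjusted p = 0.0444). The ratio of miR-152-3p to miR-103-3p rose in 25 (exact permutation test, two-sided, p = 0.00952, adjusted p = 0.0444), as did that of miR-148b-3p to miR-26a-5p (p = 0.00952, adjusted p = 0.0444 by the same exact test). The other 3 ratios did not pass after adjustment. miR-148b-3p to miR-103-3p rose in 24 pairs (exact permutation test, adjusted p = 0.075), miR-152-3p to miR-26a-5p in 23 (adjusted p = 0.117 by the same exact test) and miR-148a-3p to miR-26a-5p in 22 (adjusted p = 0.129 by the same exact test). The FA and 1 ppm O3 pools of each of these 6 ratios overlapped, and most of the step lay between 1 ppm and 2 ppm O3. The 6 ratios were chosen after the values had been seen, against references that themselves fell at 2 ppm O3. Their p-values therefore do not test the members alone, and the share of all entries with such a trend was not counted. Summed over the 3p entries, the family was 0.0473 ± 0.00497 of the miR-26 family in FA, 0.0495 ± 0.00202 after 1 ppm O3 and 0.0831 ± 0.00230 after 2 ppm O3. To the miR-103 and miR-107 family it stood at 1.06 ± 0.0830, 1.23 ± 0.120 and 1.52 ± 0.124.

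**Figure D5:**
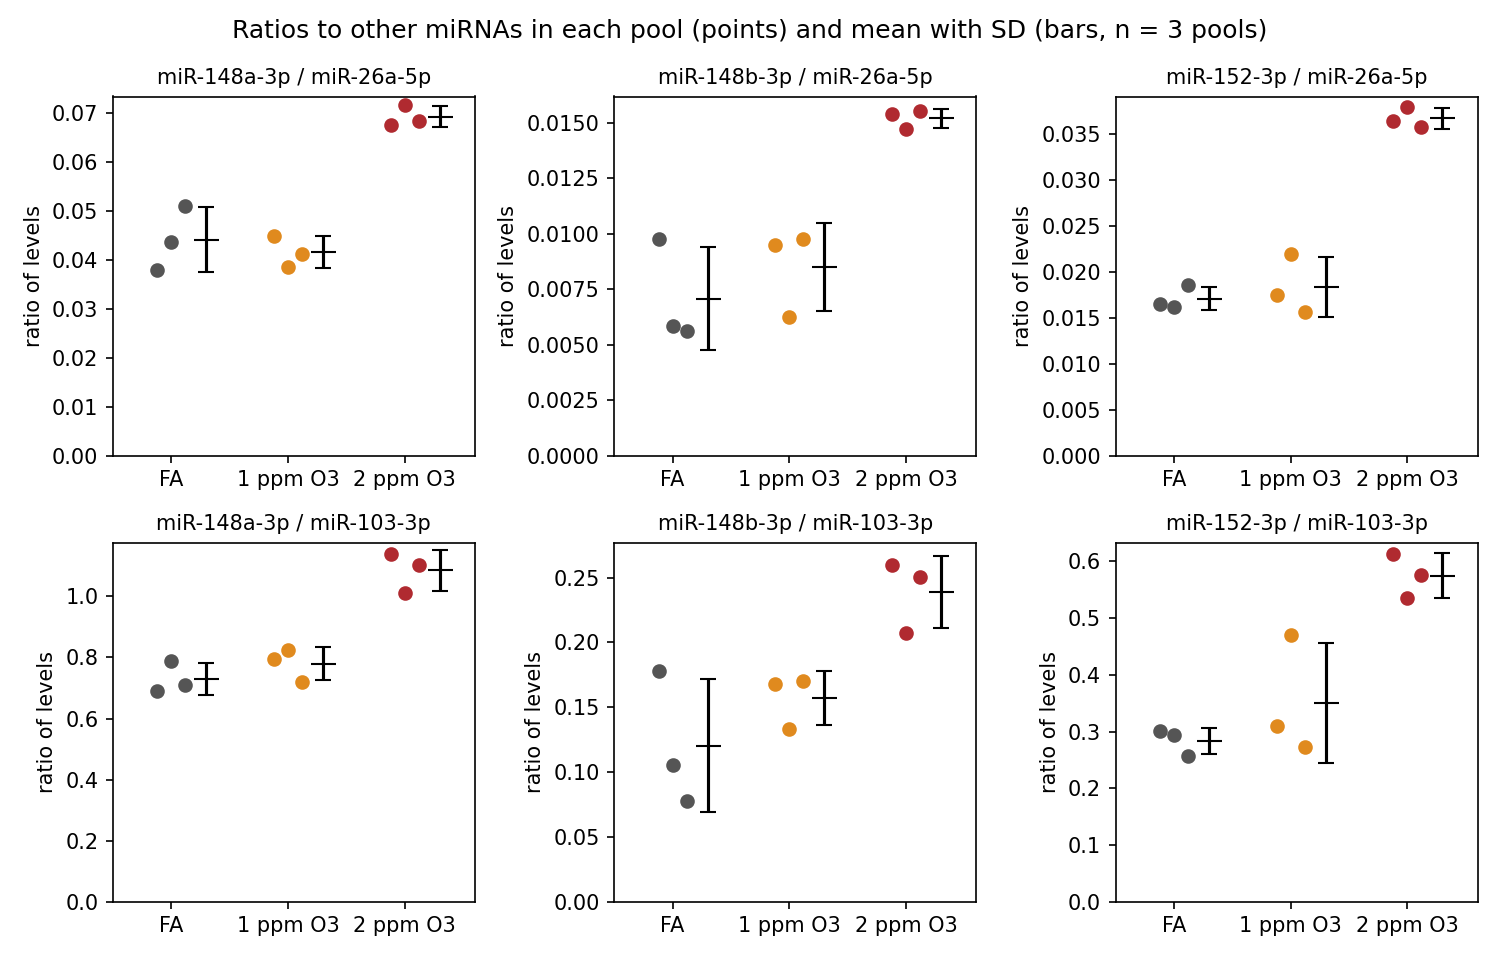
Ratio of each mature 3p member to miR-26a-5p (top) and to miR-103-3p (bottom) in the 9 pools by exposure, with vertical axes from 0, points for pools and the mean and SD of 3 pools beside them. In all 6 panels the 2 ppm O3 points lie above the FA and 1 ppm O3 points, by 1.49-fold to 2.22-fold over FA on average, and these ratios are the same under every scaling. Since miR-26a-5p and miR-103-3p fell further than the median of all entries, a typical entry also rises in such ratios.

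The mature entries with the pattern most like that of miR-148a-3p, by Pearson correlation of log2(RPMMM + 1) over the 9 pools among 233 candidates, were miR-181b-5p from its 2 genomic copies (0.957 and 0.936), miR-103-3p from its 2 copies (0.952 and 0.946) and miR-532-5p (0.900). The median over candidates was 0.578, and the pools share exposure and depth. With median-of-ratios scaling, 0 of these 5 were among the 5 nearest. As deposited, the Pearson correlations between members over the 9 pools were 0.08 between miR-148a-3p and miR-148b-3p, -0.01 between miR-148a-3p and miR-152-3p (Spearman 0.37) and -0.15 between miR-148b-3p and miR-152-3p. They turned on the scaling, and without miR-2137 and the unmatched hairpins they were 0.62, 0.82 and 0.64 in the same order.

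Other miRNAs known to act on DNA methyltransferases, those of the miR-29 family, miR-126, miR-185 and miR-342, had 15 entries tested. After 2 ppm O3, 5 of the 15 were called higher and 1 lower than in FA, beside 14.3% and 29.3% of all entries, with a median log2 fold change of -0.21. The higher ones were miR-126-5p at 2.54 (adjusted p = 0.00217 from limma), miR-126-3p at 2.32 with its isomiR miR-126-3p_+_1 at 1.63, and miR-29b-3p from both genomic copies at 1.76. The copies of miR-29b-3p carry the same values, so the 5 entries are not 5 separate miRNAs. miR-126 is known from endothelial cells and miR-29b from control of collagen as well as of the methyltransferases. The lower one was miR-342-3p, a leukocyte miRNA, at -1.06 (adjusted p = 0.00643 from limma), which was not called with 3 of the other scalings. Over the 4 other scalings, 4 to 6 entries of the list were called higher and 0 or 1 lower. After 1 ppm O3, 1 of 15 was called higher, beside 10.4% of all entries, miR-126-5p at 1.77 (adjusted p = 0.0411 from limma).

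Markers of cell types were measured in the same pools, and their counts stand beside 14.3% of all entries called higher and 29.3% called lower at 2 ppm O3 against FA. As deposited, 0 of 29 epithelial entries were called higher and 11 lower (miR-200, miR-141, miR-34 and miR-449 hairpins, sums of 76486 to 85983 RPMMM in FA and 38618 to 42303 RPMMM after 2 ppm O3). The 11 were entries of miR-200a, miR-200b, miR-200c and miR-449a, and none was of miR-141, miR-429, miR-34b or miR-34c. The sums of mir-141 and mir-429 were lower without overlap and those of mir-34c overlapped. The mir-34b sums were 5307 to 6826 RPMMM in FA and 6556 to 7372 RPMMM after 2 ppm O3. Of 8 leukocyte entries, 0 were higher and 3 lower, miR-142-3p, miR-155-5p and miR-342-3p, with sums of 2833 to 3925 RPMMM in FA and 1817 to 2190 RPMMM after 2 ppm O3. None of the 3 was of mir-223, whose sums overlapped, at 607 to 1146 RPMMM in FA and 719 to 860 RPMMM after 2 ppm O3. The sums of mir-142, mir-155 and mir-342 were lower without overlap. Of 4 muscle entries, all 4 were lower, the copies of miR-1a-3p and of the isomiR miR-133a-3p_+_1, with sums of 234.66 to 6029 RPMMM in FA and 0 to 179 RPMMM after 2 ppm O3. The copies of each carry the same values. The miR-1a sums overlapped, at 140 to 4638 RPMMM in FA and 0 to 179 RPMMM after 2 ppm O3. Those of mir-133a were 94.64 to 1333 RPMMM in FA and 0 after 2 ppm O3. These entries passed the filter on the mean chiefly through FA pools, so their count is no separate support for a fall. The mean of miR-133a-3p_+_1 was 59.2 RPMMM, near the lowest values of the 2 ppm O3 pools, 34.3 to 37.3 RPMMM. The calls of miR-142-3p and miR-449a-3p also rest on low levels with wide errors. Their means were 85.8 and 118 RPMMM, with log2 fold changes of -5.44 ± 1.44 (SE) and -6.16 ± 1.98 in that order. Of 2 erythroid entries, 0 were called, with sums of 884.44 to 1822 RPMMM in FA and 158 to 948 RPMMM after 2 ppm O3. Leaving miR-2137 and the unmatched hairpins out of the total gave 2 higher and 2 lower of 31 epithelial entries, 1 lower of 10 leukocyte entries and 4 lower of 4 muscle entries. Their part in the levels of the family was not tested, and fewer vesicles of one cell type cannot be told apart from less of a miRNA per vesicle in such pools.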

How the data were processed

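The authors isolated EV RNA from pooled BALF with a column kit, sequenced small RNA in 9 pools, trimmed adapters, mapped them to mm9 and counted miRNAs with their isomiRs in miRquant. They deposited RPMMM values, a kind of RPM over miRNA reads only, and the column of each pool sums to 1000000. An isomiR's suffix was read as the shift of its 5′ end in bases, downstream for + and upstream for -. Scaling to a fixed total lowers every entry of a pool in which a few entries rise.

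Pools were grouped by the exposure in the labels, and the replicate number only names a pool. Nothing in the labels tells more of the independence of the pools, so that p-values set a difference against the spread between these pools only. Entries were matched by name, and the members and lists were chosen with earlier results of these data known. All mature members were named, with isomiRs where the mean was above 50 RPMMM; the isomiRs and 5p forms given below that level were chosen after their values were seen, and so were the single-member ratios to miR-26a-5p and miR-103-3p, the coefficients of variation and correlations between members under other scalings, and the shifted share of the table without miR-2137 and the unmatched hairpins. For the 461 entries whose mean exceeded 50 RPMMM, limma 3.58.1 (R 4.3.3) was run on log2(RPMMM + 1), as 1 model of 3 exposures with a variance trend, with Benjamini-Hochberg adjustment over all entries in each comparison, and the fit was tested on simulated data. Sums, shares and ratios, 1 value per pool, were compared by two-sided exact permutation tests, which cannot go below p = 0.1 with 3 pools against 3, or below 0.00119 over 27 pairs; sums over the family were not tested. A difference between ratios or sums is one of mean log2 values.

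Reads behind a value were estimated from the step of 1 read in the low values. Of the 62 family values above 0, 47 lay within 0.1 read of a whole number, so no count test was run. Intervals are 95% Wilson intervals of these reads and cover counting error only. Scalings, pseudocounts, filters and each pool left out were tried as alternatives. Other steps used scipy 1.17.1, numpy 2.4.6, matplotlib 3.10.9 and pandas 2.3.3 under Python 3.11.15. Hairpin positions are from GENCODE vM1, and mature sequences from RefSeq, which held all 6 mature forms of the family.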

Additional observations from a re-analysis of the deposited data

How the results depend on the processing

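No paired analysis was run, because pools of different exposures came from different mice and the labels name no pairing. The level of miR-148a-3p after 2 ppm O3 was below FA in 19 of 21 alternative fits, and its adjusted p was below 0.05 in 11 of the 21 (0.0183 to 0.586, limma). It was below 1 ppm O3 in 19 of 21, with 8 (0.0224 to 0.390). The 11 include the fit without miR-2137 and the unmatched hairpins, in which it was above FA (0.46, adjusted p = 0.0198 from limma). Median-of-ratios scaling also put it above FA (0.30). Most alternatives kept the deposited scaling and shared its direction, so the count of 19 says little about a change of scaling. The threshold on p alone gave 1 called member in each comparison with 2 ppm O3, in place of 0. The limits of the data are the 71.5 to 83.2 reads behind miR-148b-3p at 2 ppm O3 and 3 pools an exposure. The cause of the changes below was not tested, except that a scaling moves every entry of a pool by the same factor. Differences are in log2, and each number of pairs is of 27, or of 21 with a pool left out.

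Leaving miR-2137 out of the total turned miR-152-3p at 2 ppm against 1 ppm O3 to 0.12, and its summed hairpin to 0.28 against FA, 0.054 against 1 ppm O3 and 24 pairs rising. The mir-148b sum turned to 0.28 against FA, with 16 pairs, and the family sum to 0.026 against FA and -0.16 against 1 ppm O3. The coefficient of variation of miR-148a-3p became 8.84%.

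Leaving out miR-2137 and the unmatched hairpins turned miR-148a-3p to 0.46 at 2 ppm O3 against FA, and the values at 2 ppm against 1 ppm O3 to 0.34 (miR-148a-3p), 0.47 (miR-148b-3p) and 0.62 (miR-152-3p). The sums at 2 ppm O3 turned to 0.43 against FA and 0.28 against 1 ppm O3 for mir-148a (26 pairs), 0.83 and 0.17 for mir-148b (22 pairs), and 0.83 and 0.55 for mir-152 (27 pairs). The family sum was 0.24 at 1 ppm O3, 0.58 at 2 ppm O3 and 0.33 between them, and miR-152-3p varied by 29.9%.

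Median-of-ratios scaling turned miR-148a-3p to 0.30 at 2 ppm O3 against FA, and the values against 1 ppm O3 to 0.21 (miR-148a-3p), 0.34 (miR-148b-3p) and 0.48 (miR-152-3p). The sums turned to 0.26 and 0.15 for mir-148a (21 pairs), 0.67 and 0.036 for mir-148b (21 pairs), 0.67 and 0.41 for mir-152 (27 pairs) and 0.42 and 0.20 for the family, against FA and 1 ppm O3 in that order. miR-152-3p varied by 24.9%, and 0 of the 5 entries most like miR-148a-3p were shared.

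Relative to miR-23a-3p, values at 1 ppm O3 against FA turned to -0.27 (miR-148a-3p) and -0.10 (miR-152-3p), with sums of -0.24 (mir-148a), -0.11 (mir-152) and -0.14 (family). miR-152-3p stood at -0.043 after 2 ppm O3 against FA and 0.055 against 1 ppm O3, the family sum at -0.37 and -0.23, and the mir-148a sum rose in 3 pairs. With the mature entry alone, the sums at 2 ppm O3 against FA turned to 0.015 (mir-148b, 17 pairs) and 0.048 (mir-152, 15 pairs).

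With each pool left out in turn, at 1 ppm O3 against FA miR-148a-3p ranged from -0.079 to 0.094, the mir-148a sum from -0.060 to 0.13 and the ratio of miR-148a-3p to miR-152-3p from -0.28 to 0.018. The ratio of miR-148b-3p to miR-152-3p ranged from -0.030 to 0.54, and the ratios to miR-26a-5p from -0.19 to 0.030 (miR-148a-3p) and from -0.043 to 0.20 (miR-152-3p). At 2 ppm O3 against FA, miR-148b-3p ranged from -0.068 to 0.37, the sums from -0.18 to 0.19 (mir-148b) and from -0.062 to 0.00205 (mir-152), and the ratio of miR-148b-3p to miR-152-3p from -0.15 to 0.33. Against 1 ppm O3, the ratio of miR-148a-3p to miR-148b-3p ranged from -0.25 to 0.025 and that of miR-148b-3p to miR-152-3p from -0.49 to 0.079. Pairs rising ranged from 2 to 5 for the mir-148a sum and for the ratio of miR-148a-3p to miR-152-3p, from 7 to 12 for the mir-148b sum, from 6 to 11 for the mir-152 sum and from 9 to 13 for the ratio of miR-148b-3p to miR-152-3p. They ranged from 17 to 20 for miR-152-3p and from 16 to 19 for miR-148a-3p to miR-26a-5p, and from 18 to 21 for miR-148b-3p to miR-103-3p.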
